A study of Mus musculus with 47 samples.

Results

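Cyp4f39, Aldh3a1, Ly6g6c, Mal and Avil are 5 of the 22632 genes measured by messenger RNA sequencing in 47 mouse libraries. They were chosen by their measured values in these libraries, which were high on doxycycline and low after the drug was removed or in iPS cells, so those differences are given as descriptions, without a test. Each symbol matched 1 row of the deposited table. The deposited identifiers are ENSMUSG00000061126 for Cyp4f39, ENSMUSG00000019102 for Aldh3a1, ENSMUSG00000007044 for Ly6g6c, ENSMUSG00000027375 for Mal and ENSMUSG00000025432 for Avil.

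The cells were secondary mouse embryonic fibroblasts, which carry the means to be reprogrammed when doxycycline is given, and 8 clones were followed. The labels title 4 clones SC and 4 clones SI without spelling the names out, and they name neither the strain nor the transgenes. Libraries were made after 14 days with doxycycline (d14), after 21 days (d21) and after 27 days (d27), and also when the drug had been given for 21 days and then left out for 1 day (d22) or 2 days (d23). The 4 SC clones were also sampled as secondary iPS cells, after 21 days with and 6 days without doxycycline, and 3 libraries came from feeder fibroblasts that had no drug. That makes 12 groups, each of 4 libraries except the feeders with 3, with 24 libraries taken on the drug and 23 without it. Each clone gives 1 library at each time. Values are RPKM, that is reads per kilobase and per library size. Between 10909 and 11931 genes reached 1 RPKM in a library, and the steps between low values implied a depth of 31.5 to 98.8 megareads, up to a whole multiple, in the 42 libraries that allowed it. The library of clone SI3 at d21 stood apart, with a fibroblast marker level of 6.97 (mean log2(RPKM + 1)) where SI1, SI2 and SI4 had 5.40 to 5.61. SI3 was also highest of the SI clones at d22 (8.04 against 6.73 to 6.96) and d23 (8.25 against 7.18 to 7.43). Tests of the 5 genes and median shares that use SI3 at d21 are also given without it. The d23 against d21 tests of other single genes keep it.

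These genes are known from specialised cells and not from fibroblasts. Cyp4f39 is a cytochrome P450 fatty acid hydroxylase that serves the acylceramides of the skin barrier, and its human counterpart is CYP4F22. Aldh3a1 is an aldehyde dehydrogenase abundant in the cornea. Ly6g6c encodes a small GPI-anchored protein of the Ly6/uPAR family from the class III region of the major histocompatibility complex. Mal is a membrane proteolipid of lipid rafts, known from apical transport in epithelia, from myelin and from T cells. Avil (advillin) is an actin-regulating protein of the villin and gelsolin family, known from sensory neurons and tuft cells. In doxycycline-inducible reprogramming the drug switches on integrated copies of reprogramming factors, among which Klf4 is also a regulator of epithelial differentiation.

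The promoter sequences are shown because the 5 genes were high on the drug and low in iPS cells and feeders while lying on 4 chromosomes, with Cyp4f39 and Ly6g6c both on chromosome 17. The sequences come from RefSeq on build GRCm38.p6, which is not the build of the deposited values, and run 5′ to 3′ along the gene's strand across the annotated start. Of the 5 genes, 4 had an entry, and Aldh3a1, on chromosome 11, was missing. Cyp4f39 lies at chr17:32452473-32452772 on the plus strand, Ly6g6c at chr17:35067075-35067374 on the plus strand, Mal at chr2:127656646-127656945 on the minus strand and Avil at chr10:127000459-127000758 on the plus strand. Capitals mark matches to 8 short motifs searched on both strands.
Cyp4f39: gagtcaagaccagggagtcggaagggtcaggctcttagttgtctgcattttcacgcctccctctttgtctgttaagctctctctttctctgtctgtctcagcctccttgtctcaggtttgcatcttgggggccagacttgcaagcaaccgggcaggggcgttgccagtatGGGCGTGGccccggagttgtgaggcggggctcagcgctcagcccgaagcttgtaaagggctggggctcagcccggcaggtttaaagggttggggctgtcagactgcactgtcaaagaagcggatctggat
Ly6g6c: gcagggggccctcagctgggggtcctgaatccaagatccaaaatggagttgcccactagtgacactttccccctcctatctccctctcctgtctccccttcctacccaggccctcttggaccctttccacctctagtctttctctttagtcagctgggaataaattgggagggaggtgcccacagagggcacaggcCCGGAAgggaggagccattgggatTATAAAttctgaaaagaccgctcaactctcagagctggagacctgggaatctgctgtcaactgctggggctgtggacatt
Mal: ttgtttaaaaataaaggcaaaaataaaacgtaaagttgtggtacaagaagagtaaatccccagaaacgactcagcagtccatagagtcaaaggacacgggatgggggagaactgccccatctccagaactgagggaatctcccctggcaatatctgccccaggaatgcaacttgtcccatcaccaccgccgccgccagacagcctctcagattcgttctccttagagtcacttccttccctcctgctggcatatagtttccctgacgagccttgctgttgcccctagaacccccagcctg
Avil: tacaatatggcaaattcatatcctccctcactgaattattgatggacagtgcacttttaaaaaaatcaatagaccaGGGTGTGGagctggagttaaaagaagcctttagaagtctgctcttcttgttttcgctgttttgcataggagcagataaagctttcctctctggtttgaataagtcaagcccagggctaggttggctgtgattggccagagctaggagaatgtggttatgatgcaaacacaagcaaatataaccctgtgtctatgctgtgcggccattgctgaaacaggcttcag
The motif GGGNGTGG, bound by Klf factors, had 1 match in Cyp4f39, 80 bases before the start, and 1 in Avil, 174 bases before it. The same motif was found in 17.6% of the 32851 promoters of that length. Ly6g6c held a TATA box (TATAAA) 30 bases before the start, found in 13.6% of promoters, and an ETS motif (CCGGAA) 54 bases before it, found in 14.9%. Mal held none of the 8 motifs. The other motifs without a match in these 4 windows were the octamer ATGCNAAT (3.15% of promoters), the SOX motif ACAATGG (3.66%), the E-box CACGTG (7.15%), the GC box GGGCGG (35.7%) and the AP-1 motif TGANTCA (7.81%). None of the searched motifs overlapped another in these windows. A match describes letters only and is no evidence of binding.

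By group mean the 5 genes ranked high among all genes while the drug was present, and they were near 0 in iPS cells and feeder fibroblasts. Their group means on doxycycline lay between the 92.9th percentile of all genes (Mal in SI clones at d27) and the 99.2nd (Ly6g6c in SC clones at d14). In iPS cells the highest single value was 0.79 RPKM, for Aldh3a1, and in feeders it was 0.32 RPKM, also for Aldh3a1. In bulk RNA, fewer cells expressing a gene and less RNA per cell cannot be told apart. Across the libraries on the drug against those without it, Cyp4f39 did not overlap, with 3.97 to 109 RPKM on and 0 to 1.81 RPKM off. Of 11602 genes, 0.224% were higher on doxycycline without overlap, and since the gene was picked for this pattern nothing is read from the share. The lowest on-drug value, 4.22 RPKM for Aldh3a1, 3.73 for Ly6g6c, 4.03 for Avil and 5.87 for Mal, was exceeded in 4, 5, 8 and 11 of the 23 libraries without the drug.

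**Figure D1:**
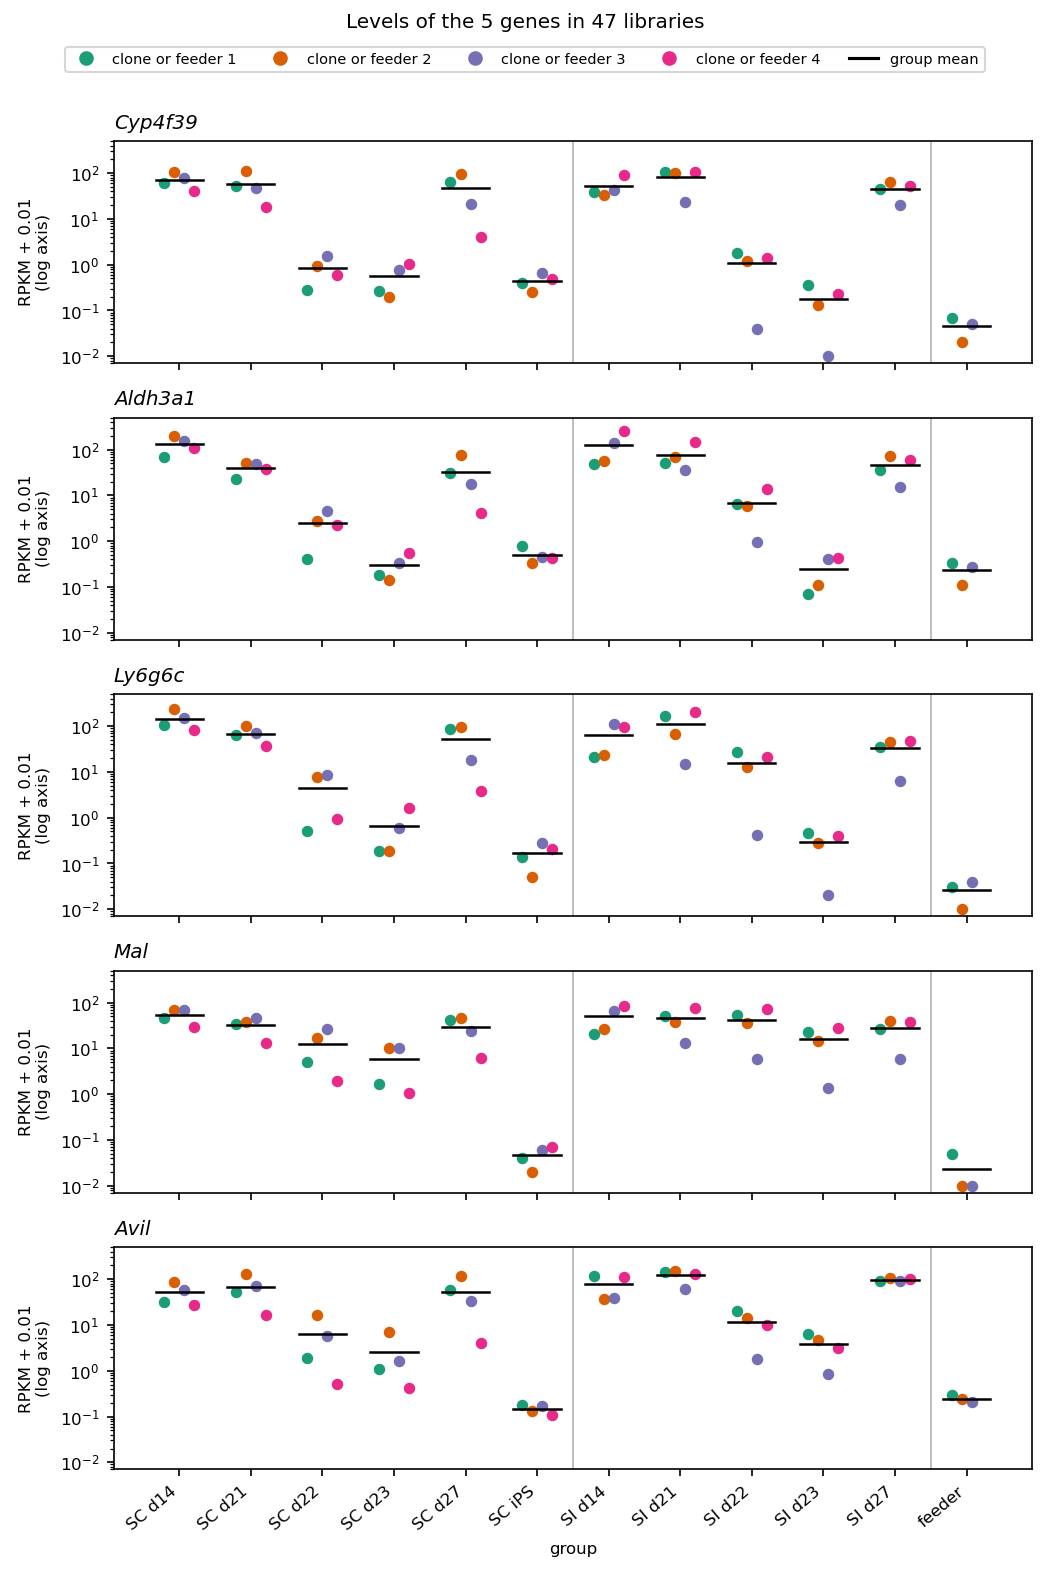
RPKM (log axis, 0.01 added) of each of the 5 genes in the 12 groups, with 1 point per library coloured by clone or feeder number and a bar at the group mean. All 5 genes are high in most on-drug libraries and low in iPS cells and feeders, and Mal keeps the highest values at d22 and d23.

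Cyp4f39, the fatty acid hydroxylase, had the sharpest boundary. At d14 it stood at 61.8, 108, 77.0 and 41.2 RPKM in SC clones 1 to 4 and at 38.4, 33.9, 43.6 and 89.0 RPKM in SI clones 1 to 4. At d21 it stood at 53.0, 109, 47.6 and 18.1 RPKM in SC clones and at 105, 102, 23.1 and 107 RPKM in SI clones. The on-drug groups overlapped each other, with SC4 and SI3 lowest in their classes at d21. At d22 the values were 0.27, 0.95, 1.53 and 0.58 RPKM in SC clones and 1.81, 1.19, 0.03 and 1.36 RPKM in SI clones. At d23 they were 0.26, 0.19, 0.76 and 1.01 RPKM in SC clones and 0.35, 0.12, 0 and 0.22 RPKM in SI clones. All 8 clones were thus low within a day, and no d22 or d23 library overlapped an on-drug one. With the drug kept to d27 the gene stood at 65.5, 94.5, 21.0 and 3.97 RPKM in SC clones and 45.8, 65.0, 20.0 and 52.1 RPKM in SI clones. In iPS cells of SC1 to SC4 it stood at 0.38, 0.24, 0.66 and 0.48 RPKM, and in feeders at 0.06, 0.01 and 0.04 RPKM. Ordered by mean, all neighbouring groups overlapped except SI clones at d27 (45.7 RPKM) and SI clones at d22 (1.10 RPKM).

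Aldh3a1, the corneal aldehyde dehydrogenase, was highest at d14, with 69.1, 197, 151 and 108 RPKM in SC clones and 47.4, 56.7, 138 and 252 RPKM in SI clones. At d21 it stood at 22.4, 50.9, 49.7 and 38.5 RPKM in SC clones, every value below the lowest at d14, and at 49.9, 68.5, 35.9 and 146 RPKM in SI clones, which overlapped their d14 values. SI4 was the highest SI clone at both times. At d22 Aldh3a1 stood at 0.39, 2.75, 4.5 and 2.27 RPKM in SC clones and 6.56, 5.93, 0.94 and 13.9 RPKM in SI clones, and at d23 at no more than 0.55 RPKM in any clone. At d27 it stood at 30.1, 77.5, 17.5 and 4.22 RPKM in SC clones and 36.4, 71.7, 15.2 and 60.3 RPKM in SI clones. SC4 at d27 was lower than 4 libraries taken off the drug. In iPS cells the gene stood at 0.79, 0.32, 0.45 and 0.41 RPKM and in feeders at 0.32, 0.10 and 0.27 RPKM. These overlapped each other and the d23 groups, and no neighbouring pair in the order of the 12 groups was separated.

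Ly6g6c, the Ly6/uPAR surface protein, reached the highest mean of the 5 genes in a single group, 144 RPKM in SC clones at d14. The d14 values were 108, 237, 148 and 82.1 RPKM in SC clones and 20.9, 23.6, 112 and 96.9 RPKM in SI clones. At d21 they were 65.6, 102, 70.4 and 37.3 RPKM in SC clones and 168, 66.5, 15.2 and 203 RPKM in SI clones. The SI clones were spread widely at both times, with SI3 the highest of them at d14 and the lowest at d21. At d22 the gene stood at 0.49, 7.62, 8.77 and 0.94 RPKM in SC clones and 26.9, 12.6, 0.40 and 21.3 RPKM in SI clones. At d23 it stood at 0.18, 0.18, 0.58 and 1.62 RPKM in SC clones and 0.46, 0.27, 0.01 and 0.39 RPKM in SI clones. SI1, SI2 and SI4 thus held the highest drug-free values at d22 and were near 0 the next day. At d27 it stood at 87.2, 96.7, 18.1 and 3.73 RPKM in SC clones and 35.3, 46.2, 6.32 and 47.4 RPKM in SI clones. It was at 0.13, 0.04, 0.27 and 0.20 RPKM in iPS cells and 0.02, 0 and 0.03 RPKM in feeders, which did not overlap.

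Mal, the raft proteolipid, was lost more slowly. At d14 it stood at 46.5, 70.4, 70.6 and 30.1 RPKM in SC clones and 21.2, 26.3, 67.0 and 85.0 RPKM in SI clones. At d21 it stood at 33.7, 37.6, 46.97 and 13.4 RPKM in SC clones and 51.4, 38.0, 13.5 and 78.0 RPKM in SI clones. At d22 it stood at 5.11, 17.0, 26.8 and 1.98 RPKM in SC clones and 54.3, 36.5, 6.01 and 71.1 RPKM in SI clones. The SI clones other than SI3 were close to their d21 values a day after the drug was removed, so their loss came later than that of the other 4 genes. At d23 Mal stood at 1.69, 10.2, 10.01 and 1.07 RPKM in SC clones and 22.8, 14.2, 1.34 and 27.4 RPKM in SI clones. Drug-free Mal overlapped on-drug Mal in 11 libraries, the most of the 5 genes. At d27 it stood at 41.3, 45.5, 23.9 and 6.08 RPKM in SC clones and 27.2, 40.1, 5.87 and 38.5 RPKM in SI clones. In iPS cells it was at 0.03, 0.01, 0.05 and 0.06 RPKM and in feeders at 0.04, 0 and 0 RPKM, and SC clones at d23 did not overlap the iPS cells.

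Avil, the actin regulator, had the highest d21 mean of the 5 genes in SI clones, 122 RPKM against 113 RPKM for Ly6g6c, although Ly6g6c was higher in SI1 and SI4. At d14 it stood at 31.8, 88.4, 58.2 and 27.5 RPKM in SC clones and 119, 36.5, 38.7 and 113 RPKM in SI clones. At d21 it stood at 51.7, 129, 70.3 and 16.9 RPKM in SC clones and 145, 153, 61.1 and 129 RPKM in SI clones. SC2 was the highest SC clone at both times, and the classes overlapped. At d22 it stood at 1.89, 16.8, 5.74 and 0.51 RPKM in SC clones and 20.6, 14.5, 1.83 and 10.1 RPKM in SI clones. At d23 it stood at 1.10, 6.93, 1.59 and 0.42 RPKM in SC clones and 6.28, 4.65, 0.82 and 3.20 RPKM in SI clones. Avil was therefore still above its feeder range of 0.20 to 0.28 RPKM in all 8 clones at d23, whereas iPS cells, at 0.17, 0.12, 0.16 and 0.10 RPKM, were below it. At d27 it stood at 57.7, 118, 34.0 and 4.03 RPKM in SC clones and 90.1, 108, 93.4 and 101 RPKM in SI clones. The SI clones were close together there (98.2 ± 7.96 RPKM, SD, n = 4), SI3 included, although SI3 was the lowest SI clone for each of the other 4 genes. The Avil transcript shares 165 of its 3398 exon bases with Tsfm on the opposite strand, and the strandedness of the libraries is not given in the sources used here.

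The rate of loss separated the genes when each clone was set against its own d21 value. At d22 the share of the d21 RPKM left, as the median of the 8 clones, was 1.22% for Cyp4f39, 7.28% for Aldh3a1, 7.98% for Avil, 8.97% for Ly6g6c and 51.2% for Mal. Mal had the largest share left in 8 of 8 clones and Cyp4f39 the smallest in 7 of 8. For Mal the share was 15.2%, 45.3%, 57.1% and 14.8% in SC1 to SC4 and 105.5%, 96.0%, 44.7% and 91.2% in SI1 to SI4. At d23 the median was 0.269% for Cyp4f39, 0.275% for Ly6g6c, 0.476% for Aldh3a1, 2.48% for Avil and 24.2% for Mal. Every member was below its d21 value in all 8 clones at d23, as were 19% of 11676 genes. Cyp4f39, Aldh3a1, Ly6g6c and Avil were under 10% of it in all 8, as were 0.24% of genes, and Mal was not. Without SI3 the medians of the other 7 clones were 1.28% at d22 and 0.333% at d23 for Cyp4f39, 8.66% and 0.288% for Aldh3a1, 8.17% and 2.49% for Avil, 10.47% and 0.275% for Ly6g6c, and 57.1% and 27.1% for Mal. Both counts of genes describe the contrast that chose the genes. The loss did not go one way in every clone between the later days, since SC4 had more Cyp4f39 and Ly6g6c at d23 (1.01 and 1.62 RPKM) than at d22 (0.58 and 0.94 RPKM).

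**Figure D2:**
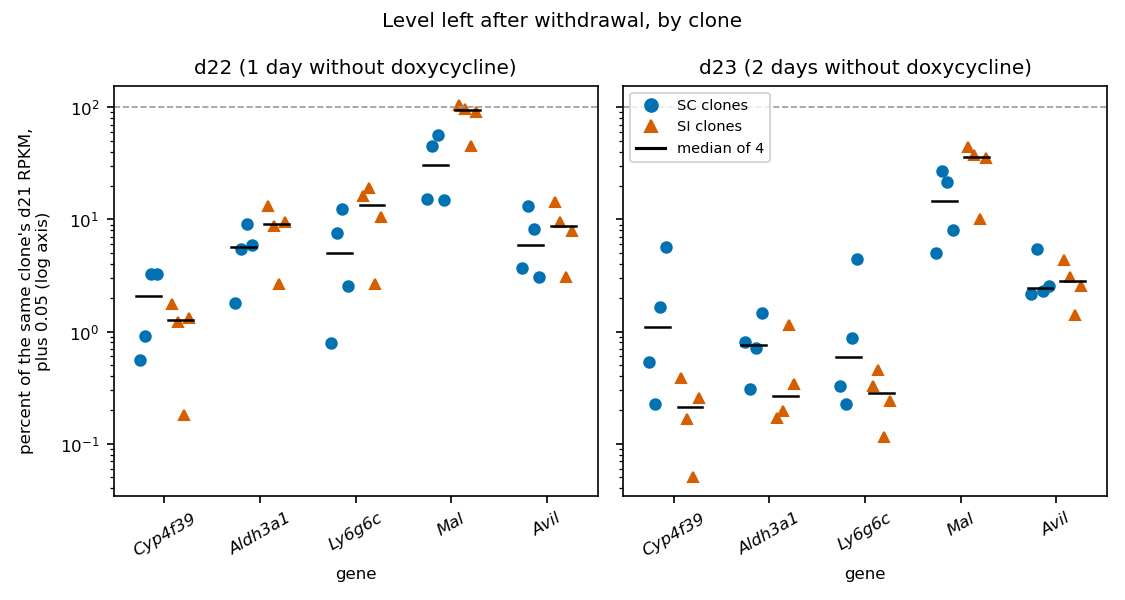
Percent of the same clone's d21 RPKM (0.05 added to each percent, log axis) left at d22 and d23 for the 5 genes, with circles for SC clones, triangles for SI clones, a bar at the median of each 4 clones and a dashed line at 100%. Mal lies above the other genes on both days, and 3 SI clones lie near 100% for Mal at d22.

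Other markers moved over the same days. Between d23 and d21, limma called 3.79% of 11975 genes in SC clones, 118 higher and 336 lower. In SI clones it called 54.6% of 11796 genes, 2676 higher and 3769 lower. The counts below are to be read beside these shares. In SC clones the summed fibroblast markers stood at 1399 to 6875 RPKM at d23 against 1926 to 2410 RPKM at d21, with 0 of 22 genes called by limma. In SI clones they stood at 7767 to 13600 RPKM at d23 against 1976 to 4809 RPKM at d21, with 18 of 22 higher and 0 lower. Leukocyte markers summed to 87.1 to 179 RPKM at d23 against 96.1 to 127 RPKM at d21 in SC clones, with 0 of 9 tested genes higher and 1 lower. In SI clones they summed to 203 to 385 RPKM at d23 against 105 to 162 RPKM at d21, with 10 of 12 higher and 1 lower. The fibroblast sums of the SI clones did not overlap between the days. Simple epithelium markers summed to 566 to 1509 RPKM at d23 against 322 to 459 RPKM at d21 in SC clones, with 4 of 18 higher and 1 lower (2 to 5 higher and 0 to 2 lower with 1 library left out). In SI clones they summed to 131 to 2556 RPKM at d23 against 97.9 to 543 RPKM at d21, with 4 of 16 higher and 0 lower (1 to 9 higher and 0 to 2 lower with 1 library left out). Pluripotency markers summed to 224 to 1582 RPKM at d23 against 149 to 1002 RPKM at d21 in SC clones, with 0 of 18 called, and to 9.70 to 53.4 RPKM at d23 against 53.1 to 142 RPKM at d21 in SI clones, with 7 of 13 lower and 2 higher. Their part in the lower levels of the 5 genes was not tested. Klf4, a reprogramming factor, stood at 13.2, 7.25, 10.7 and 11.9 RPKM at d23 in SC clones against 151, 294, 153 and 77.3 RPKM at d21. In SI clones Klf4 stood at 6.54, 6.31, 9.24 and 7.10 RPKM at d23 against 228, 150, 90.1 and 217 RPKM at d21. All d23 values of Klf4 were thus far below all d21 values, and below the feeders' 13.7 to 15.1 RPKM. Of the other reprogramming factors, Pou5f1 stood at 153 to 334 RPKM at d23 against 589 to 1385 RPKM at d21 in SC clones (log2 difference -1.87, limma adjusted p = 0.0235), and at 7.41 to 103 RPKM at d23 against 539 to 1265 RPKM at d21 in SI clones (-4.25, limma adjusted p = 0.00169). Sox2 stood at 71.2, 13.9, 111 and 117 RPKM at d23 against 123, 168, 167 and 99.95 RPKM at d21 in SC clones and was not called (-1.16, limma adjusted p = 0.35), while in SI clones it stood at 1.51 to 2.75 RPKM at d23 against 82.0 to 155 RPKM at d21 (-5.29, limma adjusted p = 8.51e-06). Myc fell in SC clones (-2.17, limma adjusted p = 0.00446) and in SI clones (-2.10, limma adjusted p = 9.87e-05). For all reprogramming factors, here and at d27, values per gene do not tell transcripts of integrated copies from those of the cells' own genes.

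The classes were compared at each time, with limma on log2(RPKM + 1) over all genes tested and Benjamini-Hochberg adjustment at 0.05. At d14, where 0% of all genes were called, 0 of the 5 genes were called between SC and SI clones, and the only unadjusted p under 0.05 was that of Ly6g6c (log2 difference 1.44 ± 0.61 SE, limma adjusted p = 0.999). At d21 and d22, where again 0% of genes were called, 0 of 5 members were called and 0 had an unadjusted p under 0.05. Of all genes, 169 at d14, 1572 at d21 and 4140 at d22 had an unadjusted p under 0.05 by limma. The largest differences were those of Avil at d21 (-1.10 ± 0.56, limma adjusted p = 0.409; -1.51 to -0.56 with 1 library left out) and of Mal at d22 (-1.71 ± 0.87, limma adjusted p = 0.182). Without SI3 at d21 the d21 differences were -1.40 for Avil, -1.13 for Cyp4f39, -1.03 for Aldh3a1, -1.01 for Ly6g6c and -0.81 for Mal, and none was called (limma adjusted p = 0.158 to 0.233). At d27, where 0.634% of genes were called, 0 of 5 members were called and 0 had an unadjusted p under 0.05, with Avil the furthest apart (-1.57 ± 0.83, limma adjusted p = 0.279). At d23 42.5% of genes were called, yet neither Mal (-1.28 ± 0.88, limma adjusted p = 0.246) nor Avil (-0.59 ± 0.58, limma adjusted p = 0.412), the 2 members past the filter on low values, was among them. Without the filter, where 21.8% of genes were called, Cyp4f39, Aldh3a1 and Ly6g6c had limma adjusted p values of 0.138, 0.746 and 0.418 at d23. In the filtered fits, standard errors of 0.33 to 1.04 on the log2 scale leave room for large differences, so these tests do not show that the classes are alike. The number of all genes called turned on single clones: without SC2 it was 222 at d21, 4147 at d22, 7978 at d23 and 2796 at d27, and at d23 it was 2 to 9 when any one of SC1, SC3, SC4, SI2, SI3 or SI4 was left out and 1835 without SI1. At d27 it was 0 to 2 when any clone other than SC2 was left out. No member was called in any of these fits.

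On the drug the genes did not keep a common course. In SC clones Aldh3a1 was lower at d21 than at d14 by 1.64 ± 0.35 on the log2 scale (limma adjusted p = 0.00503), with 25.8% to 35.7% of the d14 RPKM in 4 of 4 clones. Of all genes 42.5% were called in this comparison and 20.6% were lower. Ly6g6c was lower by 1.02 ± 0.36 (limma adjusted p = 0.0460), at 43.1% to 60.8% of the d14 value in 4 of 4 clones. Its call was lost without the filter on low values (limma adjusted p = 0.0794) and when SC1, SC3 or SC4 at d21, or SC1, SC2 or SC3 at d14, was left out (limma adjusted p = 0.0667 to 0.101), while with the clone as a block its limma adjusted p was 0.00113. Mal, at 44.4% to 72.5% of its d14 value, was not called (log2 difference -0.76 ± 0.39, limma adjusted p = 0.145) except with the clone as a block (limma adjusted p = 0.00496). Cyp4f39 (-0.51 ± 0.48, limma adjusted p = 0.419) and Avil (0.20 ± 0.58, limma adjusted p = 0.792) were not called. Beside these falls, 20 of 22 fibroblast markers were lower at d21, with sums of 1926 to 2410 RPKM at d21 against 4256 to 7975 RPKM at d14. Of the 12 leukocyte markers tested, 10 were lower, with sums of 96.1 to 127 RPKM at d21 against 134 to 235 RPKM at d14. Pluripotency markers moved the other way, with 10 of 15 higher and 0 lower (9 to 17 higher with 1 library left out) and sums of 149 to 1002 RPKM at d21 against 71.99 to 119 RPKM at d14. Of 14 corneal and stratified epithelial markers, 9 were lower and 1 higher. The part of these cells in the fall of Aldh3a1 and Ly6g6c was not tested.

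In SI clones 0 of 5 members were called between d21 and d14, as were 0% of all genes, and 0 members had an unadjusted p under 0.05 by limma, against 2313 of all genes. The clone block called 9 genes, and 1664 were called without SI3 at d21, no member among them. SI1 and SI2 were higher at d21 than at d14 for each of the 5 genes, and SI3 was lower for 4 of them, with Avil the exception. The difference between the classes in this d21 against d14 change, a comparison added after the values were seen, was called for 0 of the 5 genes and for 0% of all genes, with 465 genes at an unadjusted p under 0.05 by limma and 15 genes called, no member among them, without SC2 at d21. The class differences (SC minus SI) of this log2 change were -1.69 for Ly6g6c, -1.10 for Cyp4f39, -1.05 for Aldh3a1, -0.61 for Mal and -0.59 for Avil. With 1 library left out they ran from -2.45 to -1.23, -1.63 to -0.65, -1.50 to -0.67, -1.09 to -0.24 and -1.005 to -0.051 in that order of genes. Without SI3 at d21 they were -2.45, -1.63, -1.33, -1.09 and -0.89, and none was called (limma adjusted p = 0.496 to 0.711).

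Kept on doxycycline to d27, the SC clones drew apart. SC1 held 112% to 134% of its d21 value for each of the 5 genes at d27, whereas SC4 held 10.01% for Ly6g6c, 11.0% for Aldh3a1, 21.9% for Cyp4f39, 23.9% for Avil and 45.5% for Mal. The mean log2(RPKM + 1) of the 5 genes at d27 was 5.75, 6.38, 4.54 and 2.42 in SC1 to SC4. Over the same 4 libraries the mean of 18 pluripotency markers was 4.00, 2.48, 4.66 and 5.11, and Klf4 stood at 145, 219, 73.5 and 41.6 RPKM. Pou5f1 stood at 996, 1155, 610.08 and 383 RPKM, Sox2 at 118, 136, 96.8 and 69.8 RPKM and Myc at 66.8, 65.5, 52.03 and 33.4 RPKM. In these SC clones the order of the 5 genes was thus that of Klf4, Pou5f1 and Sox2, with Myc differing only in SC1 and SC2. It was the opposite of that of the pluripotency markers, in 4 libraries and without a test. The SI clones at d27 did not share this opposition. There the mean of the 5 genes was 5.46, 5.98, 4.12 and 5.85 in SI1 to SI4. The pluripotency mean was 1.95, 2.11, 1.54 and 2.02, in the same clone order. Klf4 stood at 139, 175, 107 and 137 RPKM and Sox2 at 123, 149, 106 and 116 RPKM, both with SI1 above SI4, unlike the 5 genes. Pou5f1 stood at 759, 988, 686 and 864 RPKM and Myc at 81.7, 97.8, 67.05 and 81.8 RPKM, in the order of the 5 genes. Against d21, 0 of 5 members were called in SC clones, where 0.00847% of genes (1 gene) were called, and 0 members had an unadjusted p under 0.05 by limma. With the clone as a block 1330 genes were called and still no member (limma adjusted p = 0.156 to 0.348). In SI clones 0 of 5 members and 0% of genes were called between d27 and d21, with 3566 genes and 0 members at an unadjusted p under 0.05 by limma. Without SI3 at d21, 5735 genes were called, among them Ly6g6c (log2 difference -2.25, limma adjusted p = 0.0228), Cyp4f39 (-1.30, limma adjusted p = 0.0121) and Avil (-0.53, limma adjusted p = 0.00263).

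**Figure D3:**
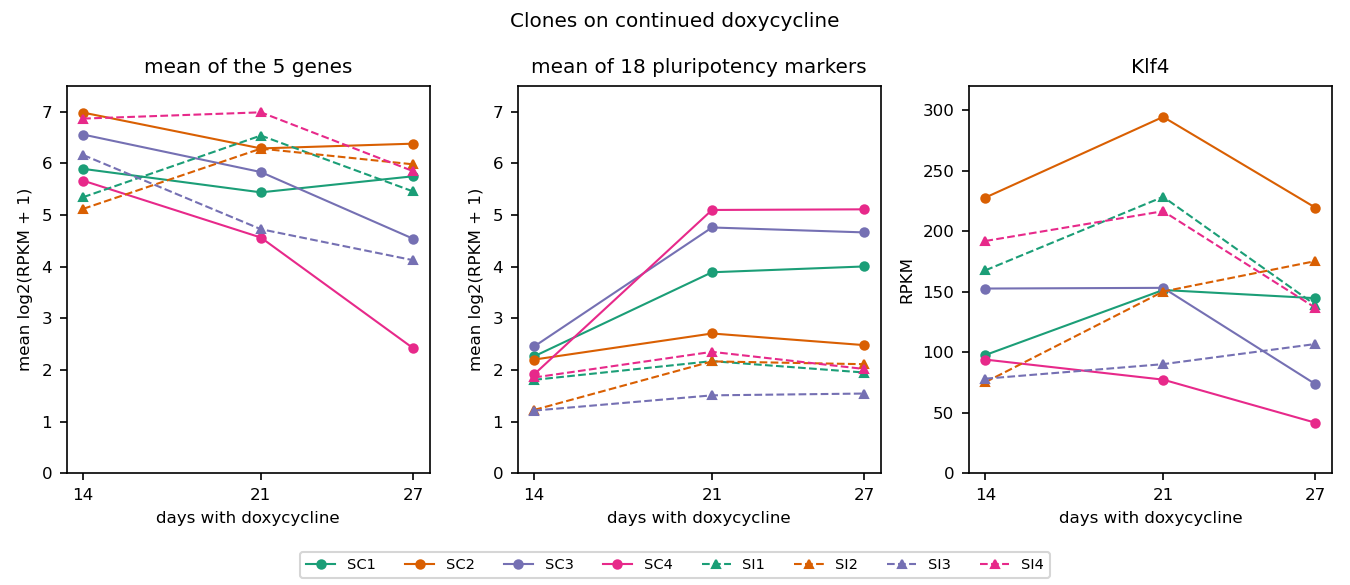
Panels against days with doxycycline (14, 21 and 27), with 1 line per clone: the mean log2(RPKM + 1) of the 5 genes, the same mean for 18 pluripotency markers, and Klf4 in RPKM. At 27 days SC4 has the lowest mean of the 5 genes (2.42), the highest pluripotency level among SC clones (5.11) and the lowest Klf4 (41.6 RPKM).

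What was left off the drug was compared with feeder fibroblasts. In SI clones at d23 against feeders, where 35.8% of genes were called, the log2 difference was 3.62 ± 0.80 for Mal (limma adjusted p = 0.0165) and 1.77 ± 0.43 for Avil (limma adjusted p = 0.0208). They were the 2 members that passed the filter on low values, and they passed it through their d23 libraries alone, so the filter fixed that they were higher at d23 and their count is no result. Neither was called when any one of the 3 feeder libraries was left out, with limma adjusted p of 0.0586 to 0.0684 for Mal and 0.0673 to 0.0789 for Avil. The count of all genes called also turned on single libraries, from 668 without the third feeder library to 7617 without SI3. Without the filter, where 19.9% of genes were called, all 5 genes entered the fit, with limma adjusted p values of 0.0294 for Mal, 0.0366 for Avil, 0.226 for Cyp4f39, 0.973 for Aldh3a1 and 0.0938 for Ly6g6c. For iPS cells against feeders, where 79.9% of genes were called, no member passed the filter. Without it 63.9% of genes were called. The log2 difference of iPS cells minus feeders was then 0.47 ± 0.09 for Cyp4f39, 0.27 ± 0.11 for Aldh3a1 and 0.19 ± 0.06 for Ly6g6c. It was 0.03 ± 0.02 for Mal and -0.12 ± 0.03 for Avil. All iPS and feeder levels of the 5 genes were below 1 RPKM. The genes were chosen in part for low values after withdrawal or in iPS cells. Neither comparison with feeders is therefore read as a test of them. As a share of d27, the same clone's iPS cells held 0.0220% to 0.987% of Mal, 0.102% to 2.48% of Avil, 0.0414% to 5.36% of Ly6g6c, 0.254% to 12.1% of Cyp4f39 and 0.413% to 9.72% of Aldh3a1. The upper end of each of the 5 ranges came from SC4, whose d27 values were low.

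The defining markers of the cell types in which these genes are usually found were measured in all 47 libraries. Krt12, a corneal keratin, was at most 0.46 RPKM, Cd3d, a part of the T cell receptor complex, at most 0.04 RPKM and Mag, a myelin protein, at most 0.17 RPKM. Other myelin markers had higher group means, with Pmp22 reaching 33.9, Myrf 12.1, Cnp 11.2 and Sox10 8.50 RPKM, each highest off the drug. Of the T cell markers, Lck reached a group mean of 5.10 RPKM in iPS cells. Thy1, also a fibroblast marker, reached 538 RPKM in feeders. Trpm5 and Pou2f3, which define tuft cells, were at most 0.85 and 1.40 RPKM. Among sensory neuron regulators Isl1 was at most 2.50 RPKM and Pou4f1 at most 3.22 RPKM, both in libraries on the drug. Higher were the sensory channel gene Trpv1, at up to 6.55 RPKM on the drug and at most 0.13 RPKM without it, and Prph, a neuronal intermediate filament gene, at up to 2.38 RPKM on and 5.40 RPKM off the drug. The basal keratin gene Krt5 reached 6.94 RPKM on and 2.03 RPKM off the drug. Trp63, the regulator of stratified epithelium, was at most 0.13 RPKM on the drug and 1.05 RPKM without it. Corneal and stratified epithelial markers other than Aldh3a1 nevertheless summed to 192 to 383 RPKM in SC clones and 231 to 648 RPKM in SI clones at d21, against 54.4 to 58.5 RPKM in feeders. A mean of 1 RPKM or more was reached by 12 of these 26 genes in SC clones, 14 in SI clones and 5 in feeders. The tuft cell markers summed to 22.8 to 40.8 RPKM in SC clones and 22.8 to 37.2 RPKM in SI clones at d21, against 41.5 to 43.3 RPKM in feeders. The sensory neuron markers summed to 18.8 to 36.6 RPKM in SC clones and 12.2 to 28.5 RPKM in SI clones at d21, against 24.9 to 25.9 RPKM in feeders. Myelin markers other than Mal summed to 27.4 to 32.4 RPKM in SC clones and 26.25 to 34.75 RPKM in SI clones at d21. In feeders their sum was 31.8 to 32.4 RPKM. T cell markers other than Mal, Thy1 included, summed to 91.0 to 139 RPKM in SC clones and 61.4 to 266 RPKM in SI clones at d21. In feeders their sum was 531 to 543 RPKM.

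Relatives of the 5 genes were followed through the same withdrawal, in lists chosen with earlier results of these data known. Between d23 and d21, 3.79% of genes were called by limma in SC clones and 2.81% were lower at d23, and 54.6% were called in SI clones and 32% were lower. In SC clones 118 genes were higher and 336 lower, and after rescaling by the median ratio 163 were higher and 277 lower. The SC count rested on single libraries, from 104 genes without SC1 at d21 to 823 without SC4 at d21, each of the 8 libraries moved it by more than 1.5 times, and the clone block called 1600. Of the genes beside Ly6g6c in the major histocompatibility complex, 3 of 12 tested were lower and 0 higher in SC clones, and 7 of 11 lower and 0 higher in SI clones. Their median log2 difference was -0.51 in SC clones against -0.07 for all genes, and -1.005 in SI clones against -0.12 for all genes. Of the Ly6/uPAR family, which shares members with that list, 3 of 14 were lower and 0 higher in SC clones, and 8 of 15 lower and 2 higher in SI clones. With 1 library left out, 2 to 3 neighbours were lower in SC clones and 6 to 8 in SI clones, and of the Ly6/uPAR family 2 to 4 were lower in SC clones and 6 to 9 in SI clones. A gene that passed the filter on low values through its d21 libraries alone could only be lower at d23. This limits what the counts of lower genes show, here and in the lists below.

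The genes next to Ly6g6c, named after their values were seen, did not all follow it. Ly6g6f, a family member of the same cluster, stood at 0.04, 0.06, 0.05 and 0.12 RPKM at d23 in SC clones against 18.3, 27.4, 24.2 and 6.99 RPKM at d21 (log2 difference -4.10, limma adjusted p = 0.00228). In SI clones it stood at 0, 0, 0 and 0.04 RPKM at d23 against 35.9, 36.3, 9.50 and 37.0 RPKM at d21 (-4.75, limma adjusted p = 8.81e-05). Neither class overlapped between the days. Ly6g6d stood at 0.58, 0.07, 0.85 and 2.06 RPKM at d23 in SC clones against 15.9, 24.9, 24.04 and 6.84 RPKM at d21 (-3.28, limma adjusted p = 0.00774). In SI clones it stood at 0.09, 0.06, 0 and 0.07 RPKM at d23 against 37.1, 42.4, 6.98 and 31.1 RPKM at d21 (-4.60, limma adjusted p = 0.000184). Ly6g6e was not called in SC clones (-0.996, limma adjusted p = 0.497), and it fell in SI clones (-2.51, limma adjusted p = 0.00067). In SC1 to SC4 it stood at 3.46, 0.64, 9.71 and 19.2 RPKM at d23 against 9.15, 7.77, 16.2 and 15.4 RPKM at d21. At d22 it had stood lower than at d21 in each SC clone, at 1.08, 0.60, 3.08 and 4.05 RPKM. Ly6g6f in both classes, and Ly6g6d and Ly6g6e in SI clones, passed the filter on low values through their d21 libraries alone. The filter thus fixed that they were lower at d23, so those falls are descriptions. Ly6g6d and Ly6g6e share 229 exon bases on opposite strands, and since strandedness is not given, it is not known whether reads there were assigned to the right gene. Between d21 and d14 in SC clones, where Ly6g6c fell, Ly6g6e rose by 1.21 (log2, limma adjusted p = 0.00372) and Ly6g6d by 1.08 (limma adjusted p = 0.0422), the second lost without the filter (limma adjusted p = 0.0739) and in 6 fits that left out 1 library.

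The families of the other members did not follow them as a group. Of the Cyp4 family, 0 of 3 tested genes were called in SC clones and 1 of 4 was lower in SI clones. That gene was Cyp4f17, with a mean of 5.19 RPKM at d23 against 12.02 RPKM at d21 (log2 difference -1.01, limma adjusted p = 0.00585). Of the aldehyde dehydrogenases, 0 of 15 were called in SC clones, and 3 of 14 were lower and 6 higher in SI clones. Aldh1a1, a retinaldehyde dehydrogenase, fell in SI clones to a mean of 0.825 RPKM at d23, against 28.8 RPKM at d21 (-4.01, limma adjusted p = 2.45e-05), whereas Aldh1a3, which also makes retinoic acid, rose to 18.9 RPKM at d23, against 0.573 RPKM at d21 (3.24, limma adjusted p = 0.0034). The closest relative of Aldh3a1 tested, Aldh3a2, which oxidises fatty aldehydes, was not called in SC clones (-0.06, limma adjusted p = 0.868) or SI clones (0.20, limma adjusted p = 0.244). Of the villin and gelsolin family, 0 of 5 were called in SC clones, and 3 of 4 were higher and 1 lower in SI clones. Gsn (gelsolin) rose in SI clones to a mean of 171 RPKM at d23, against 48.3 RPKM at d21 (1.89, limma adjusted p = 0.000883), a direction opposite to that of Avil. Of the MAL and MARVEL family, 1 of 17 was lower and 0 higher in SC clones, and 3 of 17 were lower and 4 higher in SI clones. With 1 library left out, the MAL and MARVEL family had 1 to 4 lower in SC clones and 3 to 5 lower and 4 to 5 higher in SI clones. The Cyp4 family then had 0 to 1 lower in SC clones and 1 to 2 in SI clones, and the aldehyde dehydrogenases 0 to 1 lower in SC clones and 3 to 5 lower and 4 to 6 higher in SI clones. The villin and gelsolin family had 0 to 1 lower and 0 to 1 higher in SC clones and 1 lower and 2 to 4 higher in SI clones.

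The SC gene of that family was Pllp (plasmolipin), a MARVEL-domain relative of Mal known from myelin and epithelia. It stood at 0.44, 0.54, 0.79 and 0.68 RPKM at d23 in SC clones against 8.82, 11.6, 12.2 and 4.77 RPKM at d21 (log2 difference -2.62, limma adjusted p = 0.00304). In SI clones it stood at 1.04, 0.87, 0.08 and 1.02 RPKM at d23 against 21.3, 18.6, 9.27 and 17.6 RPKM at d21 (-3.32, limma adjusted p = 9.87e-05). Pllp was low in every d23 library, while Mal itself held between 5.01% and 44.4% of its d21 value. In SC clones Pllp passed the filter on low values through its d21 libraries alone, which fixed that it was lower at d23. Of the corneal and stratified epithelial markers tested, 3 of 11 were lower and 0 higher in SC clones, and 7 of 13 lower and 3 higher in SI clones. Krt6a, a keratin of activated keratinocytes, stood at 0.05, 1.08, 0.11 and 0 RPKM at d23 in SC clones against 33.5, 28.3, 44.4 and 16.2 RPKM at d21 (-4.58, limma adjusted p = 0.00111). In SI clones it stood at 1.14, 2.47, 0.05 and 2.49 RPKM at d23 against 46.7, 27.8, 20.7 and 122 RPKM at d21 (-4.26, limma adjusted p = 0.000498). Krtdap, a keratinocyte differentiation gene, fell in SC clones (-4.57, limma adjusted p = 0.00101) and in SI clones (-4.08, limma adjusted p = 0.000109). Pllp and Krtdap were named after their values were seen, and Krt6a also ranked among the genes most like Ly6g6c. The falls of these genes are therefore descriptions. Of the acylceramide and skin barrier lipid genes, the pathway of Cyp4f39, 2 of 13 were lower and 0 higher in SC clones, and 3 of 14 lower and 5 higher in SI clones. With 1 library left out the corneal and stratified list had 2 to 5 lower in SC clones and 4 to 9 lower and 2 to 3 higher in SI clones. The acylceramide list then had 1 to 2 lower in SC clones and 3 to 5 lower and 4 to 6 higher in SI clones.

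**Figure D4:**
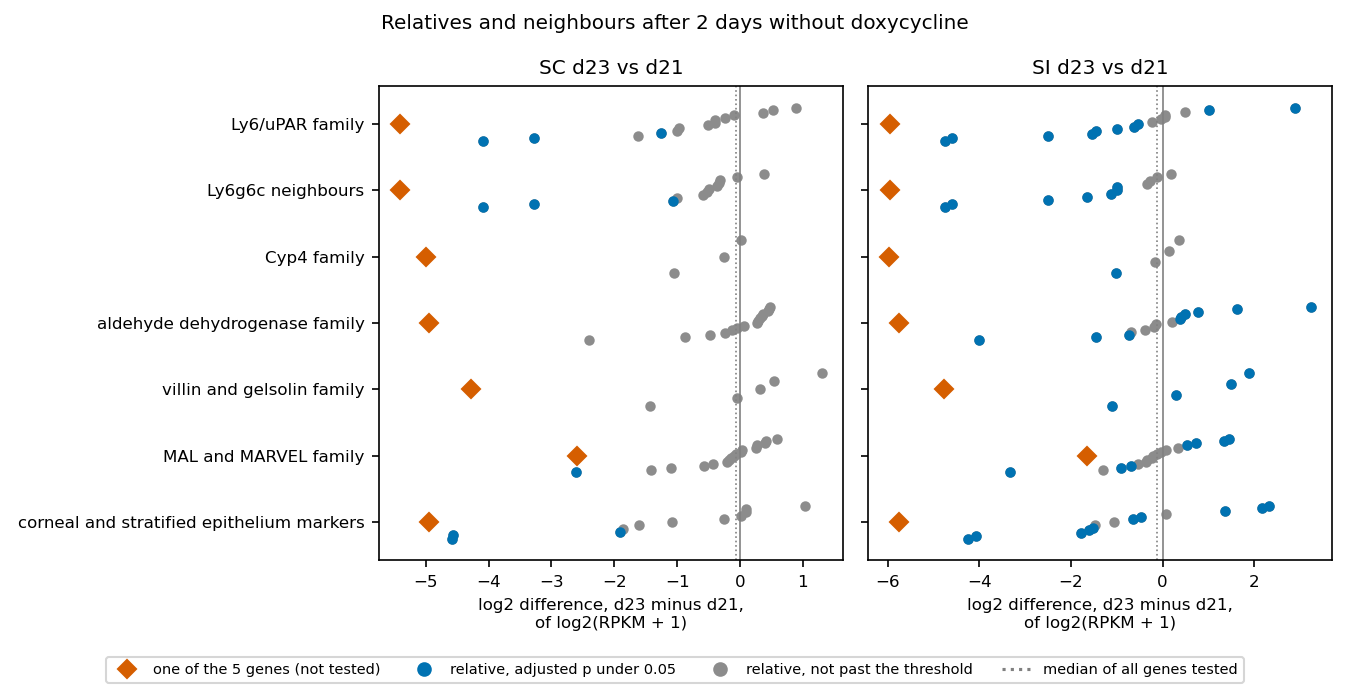
Log2 difference, d23 minus d21, of the relatives of the 5 genes in SC clones and in SI clones, with diamonds for the 5 genes (not tested), blue points for relatives with a limma adjusted p under 0.05, grey points for the others and a dotted line at the median of all genes tested. The aldehyde dehydrogenases and the villin and gelsolin family hold blue points on both sides of the line in SI clones and none in SC clones.

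The genes whose pattern over the 47 libraries was most like that of each member were ranked by Pearson's r of log2(RPKM + 1) among 9389 genes, as a description, since the libraries share clones and drug schedule. For Cyp4f39 they were Tmem198 (r = 0.981), Tmc6 (0.980) and Zdhhc23 (0.976). For Aldh3a1 they were Pcsk6 (0.957), Fetub (0.955) and Tmem198 (0.955), and for Ly6g6c Fetub (0.961), Krt6a (0.960) and Sdcbp2 (0.960). For Avil they were Rapgef4 (0.974), Ahsg (0.973) and Ablim1 (0.971). For Mal they were the desmosomal Dsp (0.961), Perp (0.960) and the integrin gene Itgb4 (0.952). The 3 genes of Mal, like those of Avil, were not among the 3 of another member. Among the members themselves r ran from 0.721, for Cyp4f39 and Mal, to 0.961, for Aldh3a1 and Ly6g6c. Over the 24 libraries on the drug it ran from 0.464, for Ly6g6c and Avil, to 0.920, for Ly6g6c and Mal, and the 3 pairs of Avil with Aldh3a1, Ly6g6c and Mal were the lowest.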

How the data were processed

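Messenger RNA libraries from 8 clones and 3 feeder samples were described per the labels as Illumina TruSeq libraries of column-purified RNA. Per the submitters' processing notes, CASAVA 1.8 and build mm9 were used, with no step stated. What aligned the reads, and whether strand was kept, was not given in the sources used here. The authors deposited 1 table of values to 2 decimals without naming the unit. The values were taken as RPKM, made by the authors, because times exon length in gigabases (GENCODE M21, 20750 genes matched) they summed to 0.788 to 0.998 per library. The treatment text gives the d22 and d23 schedule differently from the characteristics, which were followed.

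Only the libraries compared entered a fit, made with limma 3.58.1 under R 4.3.3 (lmFit, eBayes with trend) on log2(RPKM + 1), so that fold changes of low genes are understated. A gene was tested if the number of its libraries at 1 RPKM or more reached the size of the smaller group. Two-sided p-values were adjusted by Benjamini-Hochberg over all genes tested, at 0.05. Nothing says the clones came from separate animals, so they measure only the spread between these clones. On simulated data with the means of the SC against SI comparison at d23, 185 of 200 genes changed by 2 on the log2 scale were recovered, with 10 false calls. The noise was drawn independently for each gene, so the simulation does not cover shifts that the genes of a clone share. Clone names in the titles pair the libraries of a class over time, and the deviations of same-clone libraries correlated over 0.1 in 38 of 40 pairs. Alternatives were a pseudocount of 0.1, no filter, rescaling by the median ratio, a clone block and leaving out each library.

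The 5 genes and the 18 lists of relatives and markers were chosen with earlier results of these data known. Named were the 5 genes, the 3 genes most like each, up to 4 abundant members per family list and reprogramming checks; other genes named from a list were picked after their values were seen. Tables were made in Python 3.11.15 with pandas 2.3.3, scipy 1.17.1 and numpy 2.4.6, and plots with matplotlib 3.10.9.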

Additional observations from a re-analysis of the deposited data

Results flagged for a closer look

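In 1 of 55 groups of 4 libraries, 1 library lay far from the others: Cyp4f39 stood at 23.1 RPKM in SI3 at d21, while SI1, SI2 and SI4 stood at 102 to 107 RPKM. Chance alone gives about 1 such group in 20. The same library had the highest fibroblast marker level of the SI clones at d21, and the part of those cells was not tested.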

How the results depend on the processing

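The fits of the 5 genes kept direction and call in 580 alternatives, with 15 calls lost, 4 gained and 24 changes of sign. Each change of sign concerned an uncalled gene with 1 library left out. Over those fits the log2 difference of SC minus SI ran from -0.043 to 0.75 (Aldh3a1) and -0.049 to 0.60 (Mal) at d14, from -1.01 to 0.21 (Ly6g6c) and -0.81 to 0.035 (Mal) at d21, from -0.46 to 0.023 (Cyp4f39) at d22, and from -1.15 to 0.27 (Cyp4f39), -0.55 to 0.97 (Ly6g6c) and -0.56 to 0.63 (Mal) at d27. For d21 minus d14 it ran from -0.21 to 0.74 (Avil, SC) and -0.49 to 0.33 (Mal, SI). For d27 minus d21 in SC clones it ran from -1.32 to 0.10 (Cyp4f39), -1.32 to 0.20 (Avil) and -0.72 to 0.24 (Mal), and for d22 minus d21 from -0.77 to 0.44 (Mal, SI).

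Counts of all genes called moved further. With the clone number as a replicate block they were 2373 for SC against SI at d23, 0 at d27, 9 for SI d21 against d14, 1330 for SC d27 against d21, 387 for SI d23 against feeders, 1600 for SC d23 against d21 and 1399 for iPS cells against SC d27. Between classes and against feeders a number names no shared source (over 0.1 in 4 of 20 and 1 of 6 pairs), and there the block left Mal (adjusted p = 0.0586) and Avil (0.0646) in SI d23 against feeders uncalled. The block changed no call of the 5 genes beyond those given. Without the filter on low values the counts were 1 at d21 and 0 at d27 for SC against SI, 0 for SC and 2 for SI d27 against d21, 60 for iPS cells against SC d27 and 2 for the class difference of d21 against d14. Leaving out 1 library gave 0 to 0 genes at d14, 0 to 222 at d21, 0 to 4147 at d22, 2 to 7978 at d23 and 0 to 2796 at d27 for SC against SI. It gave 3825 to 5431 for SC and 0 to 1664 for SI d21 against d14, and 0 to 1 for SC and 0 to 5735 for SI d27 against d21. Against feeders it gave 9069 to 10602 for iPS cells and 668 to 7617 for SI d23. It gave 104 to 823 for SC and 5360 to 7563 for SI d23 against d21, 9 to 2766 for iPS cells against SC d27 and 0 to 15 for the class difference. Low values are rounded to 0.01 RPKM, which limits shares left off the drug.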
